A study of Mus musculus with 11 samples.

Results

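The genes of the TGF-beta and BMP signalling pathways were followed in cultured mesenchymal stem cells (MSCs, stromal cells that can form bone, fat and cartilage) from young and old mice. The 52 genes were chosen by name, by a rule that uses no measured value, but with earlier results of these data known. All 52 were found among the 28222 genes of the count table. They comprise 14 ligands, 4 latent TGF-beta binding proteins, 9 antagonists and binding proteins, 10 receptors, 8 Smads and 7 target genes and corepressors.

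Ligands of the TGF-beta superfamily are secreted proteins that bring together type I and type II receptor kinases at the cell surface. TGF-betas and activins lead mainly to phosphorylation of SMAD2 and SMAD3, whereas BMPs act mainly through SMAD1, SMAD5 and SMAD9, and both classes share SMAD4. SMAD6 and SMAD7 inhibit the pathway, extracellular proteins such as noggin and gremlin bind BMPs, and the Id genes are classical transcriptional targets of BMP signalling. In the mesenchymal lineage the pathway is known for its roles in bone and cartilage formation and in matrix production.

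Polyadenylated RNA was sequenced in 11 libraries of mouse MSCs, all grown at 2% oxygen. Young mice were 3 to 5 months and old mice 18 to 22 months of age. Of these, 4 young libraries formed batch A, 2 young with 2 old libraries formed batch B and 3 old libraries formed batch C, and the effect of age can be told from that of batch in batch B alone. All cells were kept in αMEM with 10% FBS and 1% penicillin/streptomycin, and no genotype, strain, sex, cell sort or pooling of animals was given in the labels. Because nothing states that the libraries came from separate animals or cultures, p-values measure only the spread between these libraries. For age this spread was estimated from all 11 libraries, not from batch B alone.

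Totals lay between 11969336 and 20315934 counts per library, and the detection limit was set at 3 counts, which is 0.158 to 0.254 CPM depending on the library (CPM being counts scaled to library size with TMM factors). The summed level of 12 stromal marker genes lay between 38300 and 101000 CPM in the 11 libraries and none of these genes was at 0 in any group. Most of this sum came from Col1a1 (18300 to 61700 CPM) and Col1a2 (14900 to 36300 CPM). The summed level of 20 haematopoietic marker genes was 934 to 2050 CPM in batch A, 540 to 1110 in batch B young, 1110 to 1550 in batch B old and 204 to 240 in batch C. Markers of endothelial cells, 7 genes in all, summed to at most 10.7 CPM. All 3 batch C libraries therefore had the lowest haematopoietic sums. Of the 15651 genes tested between the old libraries of batches C and B, 64.7% passed.

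Promoter sequences are shown for Id2, Id3 and Id4, as BMP targets of the list, and for Smad6, which was added after its motif match had been seen. No promoter sequence was available for Id1. The 3 short motifs that Smad proteins are known to bind were searched on both strands, namely the Smad box CAGAC, the GC-rich motif GGCGCC and the palindrome GTCTAGAC, none of which contains another. Of 32851 RefSeq promoter windows of the mouse assembly GRCm38.p6, each from 250 bases before to 50 bases after a gene start, 49.6% held CAGAC, 11.9% held GGCGCC and 0.213% held GTCTAGAC. Windows were found for 35 of the 52 genes, 47 windows in all, of which 24 (51.1%) held CAGAC, 15 (31.9%) held GGCGCC and 1 (2.13%) held GTCTAGAC. The single window with GTCTAGAC was that of Smad6 at chr9:64022010-64022309 on the minus strand. Capitals mark the motif matches in the following sequences, which run 5′ to 3′ on the strand given by RefSeq. The last 30 bases of the window were found on the transcript strand of GENCODE for Smad6, Id2 and Id3, but not for Id4, whose window ends before the GENCODE gene start at 48261228, so that its strand was not checked. The windows of Id2 (chr12:25096043-25096342, minus strand) and Id4 (chr13:48260866-48261165, plus strand) held 1 GC-rich motif each. That of Id3 (chr4:136143572-136143871, plus strand) held 2 Smad boxes, 1 of them on the opposite strand, so that it reads GTCTG in the sequence shown. A match describes the letters of the window and says nothing about binding.
Smad6 promoter: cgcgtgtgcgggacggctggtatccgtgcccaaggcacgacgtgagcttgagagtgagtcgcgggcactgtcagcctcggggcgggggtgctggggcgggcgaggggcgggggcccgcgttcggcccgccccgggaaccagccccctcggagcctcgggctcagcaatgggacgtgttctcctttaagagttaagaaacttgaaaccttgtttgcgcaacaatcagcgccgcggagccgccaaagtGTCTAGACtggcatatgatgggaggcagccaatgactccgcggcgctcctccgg
Id2 promoter: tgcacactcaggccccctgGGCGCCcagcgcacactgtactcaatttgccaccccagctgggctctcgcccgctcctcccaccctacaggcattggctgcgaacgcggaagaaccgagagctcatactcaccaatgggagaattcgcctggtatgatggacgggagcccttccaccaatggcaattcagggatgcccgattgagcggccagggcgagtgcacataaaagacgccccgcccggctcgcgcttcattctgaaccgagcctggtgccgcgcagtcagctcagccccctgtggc
Id3 promoter: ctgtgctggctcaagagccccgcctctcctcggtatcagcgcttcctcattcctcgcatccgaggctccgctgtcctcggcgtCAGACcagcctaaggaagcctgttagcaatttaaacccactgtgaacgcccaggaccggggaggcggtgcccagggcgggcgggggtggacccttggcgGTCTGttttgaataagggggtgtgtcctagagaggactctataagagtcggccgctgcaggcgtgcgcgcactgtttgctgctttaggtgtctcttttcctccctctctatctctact
Id4 promoter: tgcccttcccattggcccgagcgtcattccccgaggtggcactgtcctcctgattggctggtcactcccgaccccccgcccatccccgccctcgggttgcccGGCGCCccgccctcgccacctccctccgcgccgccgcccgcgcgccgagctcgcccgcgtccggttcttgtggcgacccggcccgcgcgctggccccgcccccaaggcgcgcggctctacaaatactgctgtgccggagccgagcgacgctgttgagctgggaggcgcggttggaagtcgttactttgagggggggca

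Levels of different genes were compared per transcript length (length-scaled level, in TPM). Fstl1, which encodes a secreted follistatin-like glycoprotein, had the highest mean length-scaled level of the 52 genes at 1420, followed by Ltbp2 (603), a matrix protein of the latent TGF-beta binding family, and the BMP target Id3 (564). Tgfb3 led the ligands with 117, and Inhba, the activin A subunit, reached 99.8. Tgfbr3, the co-receptor betaglycan, led the receptors with 87.8, next to Tgfbr2 with 83.6 and Bmpr1a with 82.9, and Smad6 led the Smads with 81.7. Most ligands of the BMP and GDF type were scarce, with mean length-scaled levels of 0.338 for Gdf5, 0.973 for Bmp2, 0.314 for Bmp3, 2 for Gdf6, 3.62 for Gdf10, 4.39 for Bmp6 and 4.75 for Bmp5 against 88.9 for Bmp4. Bmp7 never exceeded 3 counts, Gdf5 exceeded 3 counts in 5 of 11 libraries and Bmp3 in 7.

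**Figure D1:**
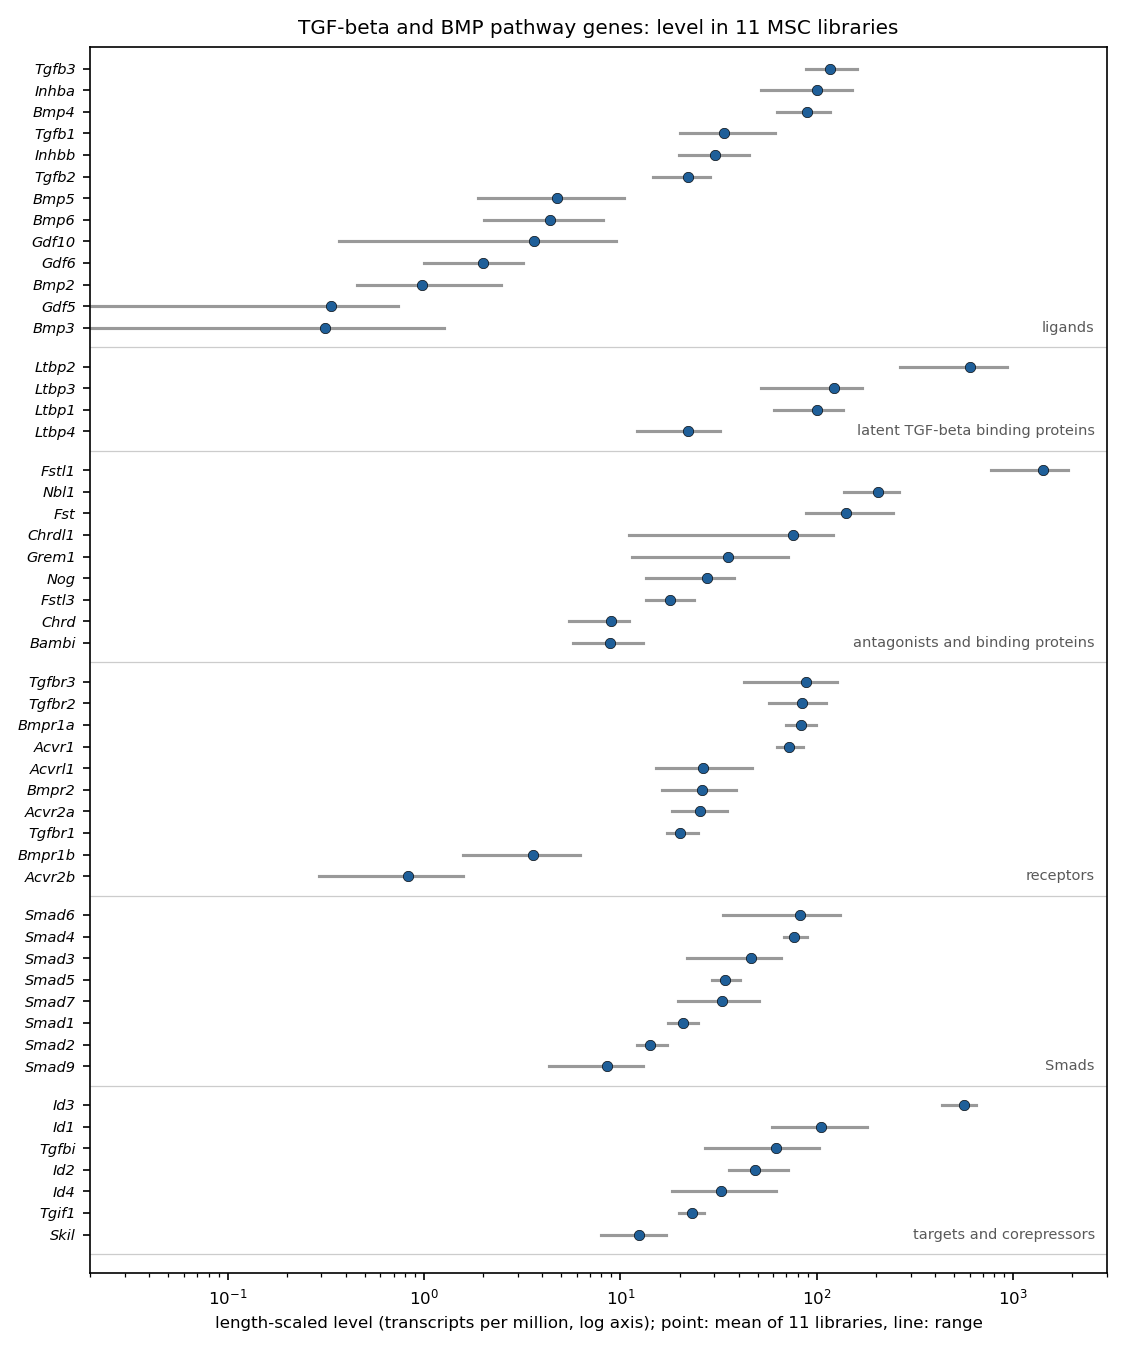
Length-scaled level of each measured member (log axis, TPM) in 11 MSC libraries, grouped by role. Points are means over the libraries and lines reach from the lowest to the highest library. Fstl1 had the highest mean, 1420, and Bmp7, with at most 3 counts in any library, is not shown, while the lines of Gdf5 and Bmp3 run off the axis because they had libraries at 0.

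The first comparison asked which pathway genes differed between old and young MSCs within batch B. In the edgeR quasi-likelihood fit of all 11 libraries with batch as a covariate, 51 of the 52 genes had enough counts to be tested, and 9 passed an adjusted p of 0.05, all lower in old MSCs. They were Grem1, Chrdl1, Nbl1 and Chrd among the antagonists, Gdf10 among the ligands, Ltbp3 among the latent TGF-beta binding proteins, Tgfbr3 among the receptors, and Smad3 and Smad6 among the Smads. Of all 16132 genes tested 2.23% passed the threshold, 1.54% lower and 0.694% higher in old MSCs. The groups did not overlap for 24 of the 51 genes, 7 higher and 17 lower in old MSCs, against 39.8% of all genes. The median log2 fold change was -0.05 for the 51 genes and 0 for all genes. Fewer cells of a type and less RNA per cell cannot be told apart in bulk RNA.

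In the antagonists, 4 of 9 genes fell in old MSCs. Grem1 encodes gremlin 1, which binds BMP2 and BMP4, and lies on chromosome 2 from 113746164 to 113758646 (GRCm38). Within batch B it reached 119 and 114 CPM in the young and 56.4 and 48.5 CPM in the old libraries. In batch A it was 26.6, 30.6, 19.7 and 26.4 CPM, and in batch C 53.6, 62.9 and 55.7 CPM. The young libraries of batch B were thus above all other libraries, and the young libraries of batch A below all other libraries. The log2 fold change with age in batch B was -1.15 (SE 0.15, adjusted p = 0.00102). A fit that ignored batch gave 0.01, and the difference between batches A and C, where age and batch change together, was 1.22.

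Chrdl1 encodes chordin-like 1, a secreted BMP binding protein, on chromosome X from 143285674 to 143394262. It was measured at 133 and 150 CPM in young but 20.6 and 44.1 CPM in old libraries of batch B. In batch A its level was 101, 183, 119 and 126 CPM and in batch C 120, 151 and 120 CPM. Only both old libraries of batch B stood below 100 CPM. The decrease with age within batch B was -2.12 on the log2 scale (SE 0.29, adjusted p = 0.00114), whereas batches A and C alone gave 0.05.

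Nbl1, a further secreted BMP antagonist of the DAN family, lies on chromosome 4 from 139082284 to 139092993. Its level stood at 168 and 188 CPM in young but 112 and 108 CPM in old libraries of batch B, 172 to 195 CPM in batch A and 91.2 to 96.7 CPM in batch C. Every old library was below every young library, although batch B alone holds both ages. The log2 fold change was -0.68 (SE 0.11, adjusted p = 0.00316). Chrd, which encodes the BMP antagonist chordin on chromosome 16 from 20733127 to 20742384, was at 19.5 and 15 CPM in young but 11 and 10.7 CPM in old libraries of batch B, with 15.3 to 17.8 CPM in batch A and 14.3 to 14.6 CPM in batch C. Both old libraries of batch B were the lowest of the 11. The change was -0.66 (SE 0.15, adjusted p = 0.0302), and this call was lost when any library of batch C, either old library of batch B or young replicate 1 of batch B was left out (adjusted p from 0.0562 to 0.212). Exons of Chrd overlap Thpo, which reached at most 1.7 CPM.

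The other 5 antagonists did not pass the test. Fst, encoding the activin antagonist follistatin, was at 109 and 116 CPM in young but 136 and 164 CPM in old libraries of batch B, without overlap (log2 fold change 0.43, SE 0.14, adjusted p = 0.144). Nog, which encodes the BMP antagonist noggin, was at 13.4 and 12.4 against 10.4 and 10.7 CPM (-0.28, SE 0.15, adjusted p = 0.357). Fstl1, Fstl3 and the pseudoreceptor gene Bambi changed by 0.14, -0.01 and -0.11, all with overlapping groups.

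Among the ligands, Gdf10 alone passed the test, 1 of 13 genes tested. Gdf10 (BMP3B, a divergent BMP-related ligand) lies on chromosome 14 from 33923587 to 33937983. It was measured at 6.44 and 6.87 CPM in young but 0.874 and 1.47 CPM in old libraries of batch B, against 3.5 to 9.91 CPM in batch A and 7.73 to 15.1 CPM in batch C. Both old libraries of batch B were below all 9 others. The log2 fold change was -2.48 (SE 0.48, adjusted p = 0.0119), and -2.15 without old replicate 1 (adjusted p = 0.163). A fit that ignored batch gave 0.15, and batches A and C alone gave 0.85. Gdf6 gave 2.64 and 4.97 against 1.61 and 1.67 CPM (-1.18, SE 0.39, adjusted p = 0.137) and Bmp5 gave 3.75 and 4.01 against 6.46 and 5.87 CPM (0.68, SE 0.24, adjusted p = 0.165). The 3 TGF-beta genes differed by -0.13 (Tgfb1), -0.12 (Tgfb2) and 0.29 (Tgfb3), with adjusted p from 0.5 to 0.801. Bmp2, Bmp3, Bmp4, Bmp6, Gdf5, Inhba and Inhbb lay between -0.31 and 0.58, with adjusted p of at least 0.651.

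All 4 latent TGF-beta binding proteins, which tether latent TGF-beta in the matrix, were lower in both old than in both young libraries of batch B, and 1 of them passed the test. Ltbp3, on chromosome 19 from 5740904 to 5758532, was at 284 and 209 CPM in young but 136 and 149 CPM in old libraries of batch B, against 345 to 390 CPM in batch A and 224 to 237 CPM in batch C (log2 fold change -0.78, SE 0.13, adjusted p = 0.00571). The call was lost without old replicate 1 (-0.70, adjusted p = 0.0837). Ltbp1, Ltbp2 and Ltbp4 differed by -0.51, -0.44 and -0.52, with adjusted p of 0.142, 0.202 and 0.169. For each of the 4 genes the batch B old libraries were also the lowest of all 11.

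In the receptors, Tgfbr3 fell. This co-receptor presents TGF-beta2 to the signalling receptors and lies on chromosome 5 from 107106570 to 107289629. It was at 231 and 173 CPM in young but 118 and 138 CPM in old libraries of batch B, 193 to 259 CPM in batch A and 219 to 231 CPM in batch C (log2 fold change -0.66, SE 0.15, adjusted p = 0.0339). Leaving out any library of batch C, either old library of batch B or young replicate 1 of batch B ended the call (adjusted p from 0.0566 to 0.312), and batches A and C alone gave 0.15. Tgfbr1, the type I TGF-beta receptor, was just outside the threshold in the other direction, at 46.8 and 43.7 CPM in young and 57.2 and 59.6 CPM in old libraries of batch B (0.38, SE 0.11, adjusted p = 0.0785), and passed in DESeq2 and with scaling by total counts. The BMP and activin receptors Bmpr1a, Bmpr1b, Bmpr2, Acvr1, Acvr2a, Acvr2b and Acvrl1, and Tgfbr2, lay between -0.31 and 0.25 with adjusted p of at least 0.363.

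Among the 8 Smads, Smad3 and Smad6 fell. Smad3, the main transcriptional effector of TGF-beta, lies on chromosome 9 from 63646767 to 63757994. It was at 94.4 and 71.1 CPM in young but 50.5 and 56.7 CPM in old libraries of batch B, 125 to 139 CPM in batch A and 64.3 to 70.5 CPM in batch C. Every old library was below every young library, but batch C reached 70.5 CPM and batch B young went down to 71.1 CPM. The log2 fold change in batch B was -0.62 (SE 0.13, adjusted p = 0.017). The call was lost without either old library or without young replicate 1 of batch B (adjusted p from 0.0519 to 0.232).

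Smad6, the inhibitory Smad of the BMP branch whose promoter is shown above, lies on chromosome 9 from 63953076 to 64022059. It was at 75.5 and 68 CPM in young but 57.5 and 41.1 CPM in old libraries of batch B, with 98 to 105 CPM in batch A and 111 to 117 CPM in batch C. Its change of -0.53 (SE 0.13, adjusted p = 0.0466) was close to the threshold, and scaling by total counts (adjusted p = 0.0746), the length and GC correction (0.0769) and leaving out one of 8 libraries each ended the call, while batches A and C alone gave 0.23. Smad9, a BMP Smad, was at 16.1 and 14.1 against 12 and 9.75 CPM (-0.47, SE 0.17, adjusted p = 0.179). Smad1, Smad2, Smad4, Smad5 and Smad7 stayed between -0.06 and 0.15, with adjusted p of at least 0.481.

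**Figure D2:**
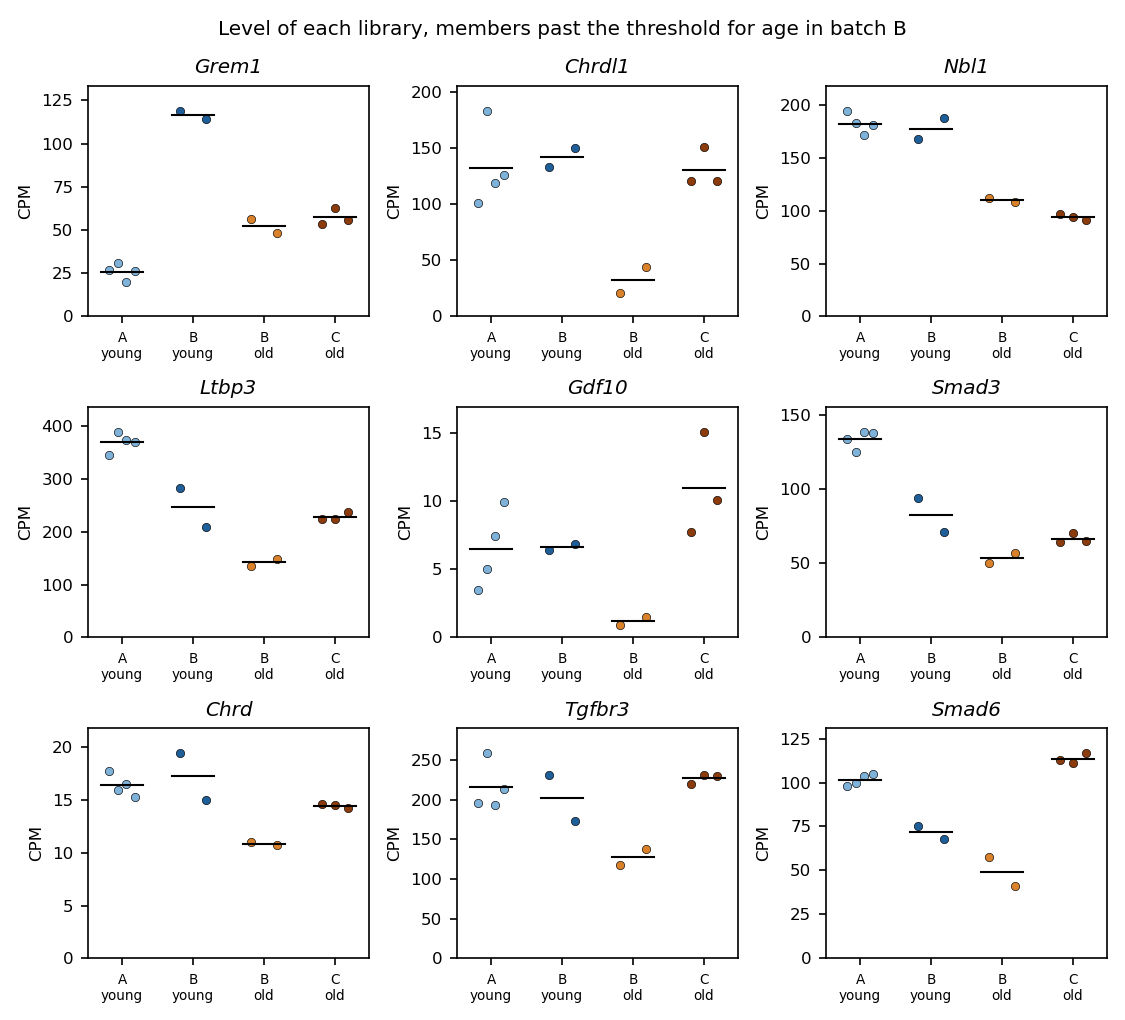
CPM of each library for the 9 members past the threshold for age in batch B, by batch and age, with group means as lines. In all panels both batch B old libraries are below both batch B young libraries. For Grem1 the batch A young libraries (19.7 to 30.6 CPM) are below the batch B old libraries.

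No target gene or corepressor passed the test for age, 0 of 7 with edgeR and 0 with DESeq2 and limma-trend, and 1 of the 7 had an unadjusted p below 0.05. Id genes encode inhibitors of bHLH transcription factors. Id1 was at 30.9 and 34.1 CPM in young and 42.3 and 28.6 CPM in old libraries of batch B (log2 fold change 0.14, SE 0.16, adjusted p = 0.711), and the groups overlapped. Id3 was at 246 and 276 against 270 and 231 CPM (-0.05, SE 0.12, adjusted p = 0.878). Id2, with 36.3 and 34.4 against 33.6 and 29.5 CPM, gave -0.15 (SE 0.12, adjusted p = 0.543), and Id4, with 31.2 in both young libraries against 37.7 and 38.5 CPM, gave 0.30 (SE 0.14, adjusted p = 0.3), so that both showed no overlap but missed the threshold. Tgfbi, a matrix protein induced by TGF-beta, Tgif1 and Skil, both corepressors, gave 0.34, 0.08 and 0.35 with adjusted p of 0.327, 0.807 and 0.315.

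**Figure D3:**
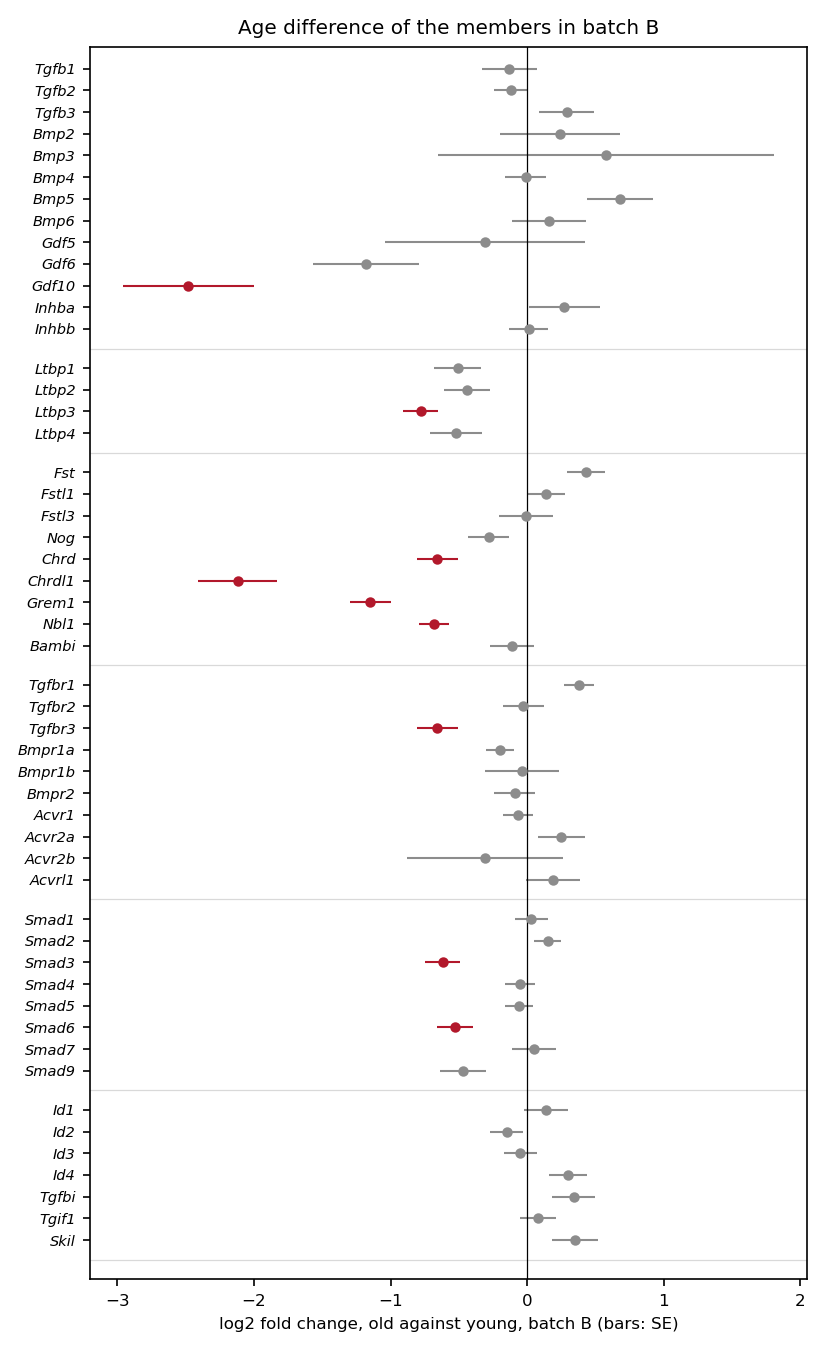
Log2 fold change of old against young MSCs in batch B for the 51 tested members, grouped by role, with SE bars. Red points passed the adjusted p threshold of 0.05 in edgeR. All 9 red points are below 0, from -2.48 (Gdf10) to -0.53 (Smad6).

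The age calls rested on few libraries. Leaving out one library at a time left 4 to 12 calls among the 51 genes, all lower in old MSCs. There were 4 calls without old replicate 1, 5 without old replicate 2 and 5 without young replicate 1 of batch B, and Grem1, Chrdl1 and Nbl1 passed in each of the 11 fits. In batch B alone 3 genes passed (Grem1, Chrdl1 and Gdf10). The age fit took its spread from all batches, although replicates differed most in batch B. The chi-square per gene between replicates was 25.3 in old and 56.1 in young libraries of batch B. It was 5.85 to 19.5 in batch A and 3.4 to 5.54 in batch C. The SE and p of the age fit may therefore understate the spread in batch B. With scaling by total counts 1 gene was higher and 7 were lower in old MSCs.

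The levels of some cell type markers moved with age in batch B as well. The haematopoietic sum was 540 to 1110 CPM in young and 1110 to 1550 CPM in old libraries, with all 20 genes higher in old MSCs and 0 past the edgeR threshold (9 at an unadjusted p below 0.05). The sum of 6 chondrocyte markers was 4370 to 6260 CPM in young and 2300 to 2560 CPM in old libraries, and 2 of these genes fell. Most of this sum came from Comp (means of 4310 and 1740 CPM) and Col2a1 (824 and 570 CPM). Osteoblast markers, 7 genes, summed to 202 to 229 and 362 to 390 CPM, and 1 of them, Alpl, rose. All 5 smooth muscle type genes were higher in both old libraries (sums of 2340 to 2450 against 3000 to 3580 CPM, 1 past the threshold). Most of these sums came from Acta2 (means of 2220 and 3000 CPM). All 14 cell cycle genes were higher as well (231 to 268 against 308 to 444 CPM, 0 past the edgeR threshold and 9 at an unadjusted p below 0.05). Of 12 stromal markers 11 were lower, 2 of them past the threshold. With the haematopoietic level as a covariate 11 members passed, the 9 given above among them. Because this level itself moved with age in batch B, the fit cannot fully separate it from age. No conclusion on its part is drawn, and the part of the other marker lists in the age differences was not tested.

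Read over all libraries, 13 of the 51 genes had their lowest values in both old libraries of batch B, against 7.74% of all genes, and 3 (Tgfbr1, Smad2 and Skil) their highest, against 7.13%. The 13 were the 4 latent TGF-beta binding proteins, Chrd, Chrdl1, Nog, Gdf6, Gdf10, Tgfbr3, Smad3, Smad6 and Smad9.

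Further components of the pathway were examined from lists chosen by name, again with earlier results of these data known. Among 41 other pathway components tested, 1 (2.44%) fell with age and 0 rose, against 2.23% of all genes past the threshold. It was Rgma, a BMP co-receptor, from 25.6 to 11.9 CPM (log2 fold change -1.09, SE 0.17, adjusted p = 0.00354). Of 27 TGF-beta response genes, 2 (7.41%) fell and 0 rose past the threshold. By sign 14 of the 27 were higher and 13 lower in old MSCs, and 17 had an unadjusted p below 0.05 in edgeR. Igfbp3 dropped from 45.4 to 12.7 CPM (-1.82, SE 0.30, adjusted p = 0.0047) and Angptl4 from 80.8 to 47.2 CPM (-0.76, SE 0.16, adjusted p = 0.0166). Of 11 BMP response genes 1 (9.09%) rose, Alpl, the alkaline phosphatase of osteoblasts, from 121 to 237 CPM (0.98, SE 0.15, adjusted p = 0.00287). By sign 7 of the 11 were higher and 4 lower in old MSCs, and 6 had an unadjusted p below 0.05 in edgeR.

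The second comparison placed the young libraries of batch B against those of batch A, at constant age. It shares the young libraries of batch B with the age comparison, so that no agreement or opposition between both is read as a result. Of 51 members tested 14 passed the threshold, 3 higher and 11 lower in batch B, against 18.1% of 14840 genes, 9.39% higher and 8.71% lower. Without overlap were 25 of the 51, against 40.6% of all genes. With scaling by total counts the split was 5 higher and 9 lower.

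Grem1, with 19.7 to 30.6 CPM in batch A and 114 and 119 CPM in batch B, had the smallest p of the members (log2 fold change 2.19, SE 0.15, adjusted p = 1.19e-05). Fstl1 was at 1200 to 1530 CPM in batch A and at 2490 and 2650 CPM in batch B (0.93, SE 0.14, adjusted p = 0.00196), and the type I BMP receptor gene Bmpr1a at 172 to 190 CPM against 237 and 230 CPM (0.39, SE 0.11, adjusted p = 0.0316). Each of the 3 was higher in both batch B libraries than in all batch A libraries.

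On the lower side, 4 of 13 ligands and 2 of 4 latent TGF-beta binding proteins were among the calls. Ltbp2 was at 2010 to 2610 CPM in batch A and at 1310 and 867 CPM in batch B (-1.07, SE 0.18, adjusted p = 0.00325). Tgfb2 was at 56.4 to 60.6 against 40.7 and 32.8 CPM (-0.67, SE 0.12, adjusted p = 0.00505), and Tgfb1, which immune cells also make, at 42.4 to 65.3 against 33.9 and 23.9 CPM (-0.88, SE 0.18, adjusted p = 0.00735). These groups did not overlap for any of the 3 genes. The haematopoietic sum was 934 to 2050 CPM in batch A and 540 to 1110 CPM in batch B young. With this level as a covariate 2 of the 14 members still passed, Grem1 and Ltbp2. Because the level itself differed between these batches, the fit cannot fully separate it from batch, and no conclusion on its part is drawn. Cell cycle genes also moved, with 12 of 14 lower in batch B and sums of 367 to 679 CPM in batch A against 231 to 268 CPM, and their part in the members' differences was not tested.

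Smad3, at 125 to 139 CPM in batch A, was at 94.4 and 71.1 CPM in batch B (-0.68, SE 0.13, adjusted p = 0.0062), and Nog at 19.3 to 24.4 against 13.4 and 12.4 CPM (-0.75, SE 0.15, adjusted p = 0.0073). Tgfbi, Smad6, Bmp4, Ltbp3 and Inhbb were lower by 0.45 to 0.66 on the log2 scale. Id1 was at 39.8 to 47.3 against 30.9 and 34.1 CPM (-0.45, SE 0.13, adjusted p = 0.0288), whereas Id2, Id3 and Id4 gave 0.07, -0.28 and -0.29 with adjusted p of 0.708, 0.147 and 0.178. The call of Id1 was lost with scaling by total counts (adjusted p = 0.0576), without replicate 3 or 4 of batch A, without either young library of batch B and with the haematopoietic covariate. Calls of Bmpr1a and Inhbb were also lost without any of several single libraries and after length and GC correction. Without young replicate 2 of batch B 5 members passed (Grem1, Fstl1, Ltbp2, Tgfb2 and Bmp4), and without replicate 3 of batch A 8.

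Among the listed response genes, 6 of 11 BMP response genes (54.5%) were lower in batch B and 0 higher. Of all genes 18.1% passed, 8.71% lower in batch B. Hes1 (11.8 against 6.39 CPM), Hey1 (3.23 against 1.22 CPM) and Runx2 (59.5 against 41.5 CPM) were among the 6. For TGF-beta response genes 10 of 27 (37%) passed, 3 higher and 7 lower. Angptl4, Hmga2 and Il11 were higher, and Loxl2, Timp1 and Ski had the smallest p on the lower side. Of 38 other pathway components 8 (21.1%) passed, 2 higher (Itgb8 and Zfyve16) and 6 lower, with Ski, Kcp and Rgmb leading.

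The third comparison placed the old libraries of batch C against those of batch B. It shares the batch B old libraries with the age comparison, and differences are again given for each comparison alone. Of 50 members tested, without Bmp7 and Gdf5, 42 passed, 25 higher and 17 lower in batch C, against 64.7% of 15651 genes, 32.1% higher and 32.6% lower. Groups did not overlap for 45 members, against 76.2% of all genes. The median log2 fold change was 0.36 for the members and 0.02 for all genes. Scaling by total counts shifted the median of all genes by 0.22 and gave 29 higher and 10 lower, and the length and GC correction gave 18 higher and 19 lower. This correction ended the calls of Ltbp1, Ltbp3, Ltbp4, Inhbb, Chrd, Bmpr2, Smad3 and Smad7, and leaving out a single library ended those of Tgfb3, Acvr2b, Smad2, Smad5 or Tgif1.

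All 4 latent TGF-beta binding proteins rose in batch C. Ltbp2 was at 844 and 748 CPM in batch B and at 1360 to 1430 CPM in batch C (log2 fold change 0.81, SE 0.08, adjusted p = 2.46e-06), and Ltbp3 at 136 and 149 against 224 to 237 CPM (0.68, SE 0.07, adjusted p = 4.1e-06). The longest transcripts of both genes have 6769 and 5729 bases, and after correction for transcript length and GC content Ltbp2 gave 0.18 and still passed, while Ltbp3 gave 0.14 (adjusted p = 0.0841) and neither Ltbp1 nor Ltbp4 passed.

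Of the ligands, 6 rose and 2 fell, out of 12 tested. Gdf10 was at 0.874 and 1.47 CPM in batch B and at 7.73, 15.1 and 10.1 CPM in batch C (3.22, SE 0.35, adjusted p = 6.81e-06). Bmp3 (2.68), Bmp2 (1.27), Bmp5 (0.87), Bmp6 (0.86) and Inhbb (0.57) also rose, and Tgfb1 (-0.62) and Tgfb3 (-0.32) fell. Bmp3 was near the detection limit in batch B, at 0.0673 and 0.467 CPM, against 1.11 to 2.54 CPM in batch C. Exons of Bmp6 overlap those of the abundant gene Txndc5 (458 to 608 CPM), so that reads of both genes may have been mixed. Tgfb3, with 151 to 188 CPM in batch B and 131 to 140 CPM in batch C, was no longer past the threshold with scaling by total counts. Bmp4, Inhba, Tgfb2 and Gdf6 did not pass.

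The antagonists and receptors changed in both directions. Chrdl1 was at 20.6 and 44.1 CPM in batch B and at 120 to 151 CPM in batch C (2.01, SE 0.22, adjusted p = 8.66e-06), and Nog (0.87), Fst (0.52) and Chrd (0.42) rose as well, whereas Fstl3 (-0.84), Fstl1 (-0.41) and Nbl1 (-0.23) fell. With scaling by total counts Fstl1 and Nbl1 lost the call. Grem1 gave 0.13 (SE 0.09, adjusted p = 0.21).

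All 10 receptors passed, 4 higher and 6 lower. Tgfbr3 was at 118 and 138 CPM in batch B and at 219 to 231 CPM in batch C (0.83, SE 0.08, adjusted p = 1.78e-06). The type I BMP receptor gene Bmpr1b fell from 12 and 10.7 CPM to 2.64, 2.99 and 3.39 CPM (-1.92, SE 0.17, adjusted p = 1.22e-06), and Tgfbr1 from 57.2 and 59.6 CPM to between 35 and 37.2 CPM (-0.68, SE 0.07, adjusted p = 3.75e-06). Acvrl1 (0.64), Bmpr2 (0.46) and Acvr2b (1.31) rose, and Acvr2a (-0.58), Tgfbr2 (-0.46), Acvr1 (-0.42) and Bmpr1a (-0.27) fell. The fall of Bmpr1a was not called with scaling by total counts.

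Of the 8 Smads 4 rose and 3 fell. Smad6 was at 57.5 and 41.1 CPM in batch B and at 113, 111 and 117 CPM in batch C (1.21, SE 0.11, adjusted p = 1.87e-06), above all other libraries. Smad7 (0.60), Smad9 (0.83) and Smad3 (0.31) also rose, but Smad7 and Smad3 were not called after length and GC correction. Smad4, the partner of all receptor-activated Smads, fell from 112 and 105 CPM to between 71.7 and 81 CPM (-0.51, SE 0.07, adjusted p = 5.89e-05), Smad2 and Smad5 both fell by 0.21 without holding under total count scaling, and Smad1 gave -0.16 (adjusted p = 0.0991).

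**Figure D4:**
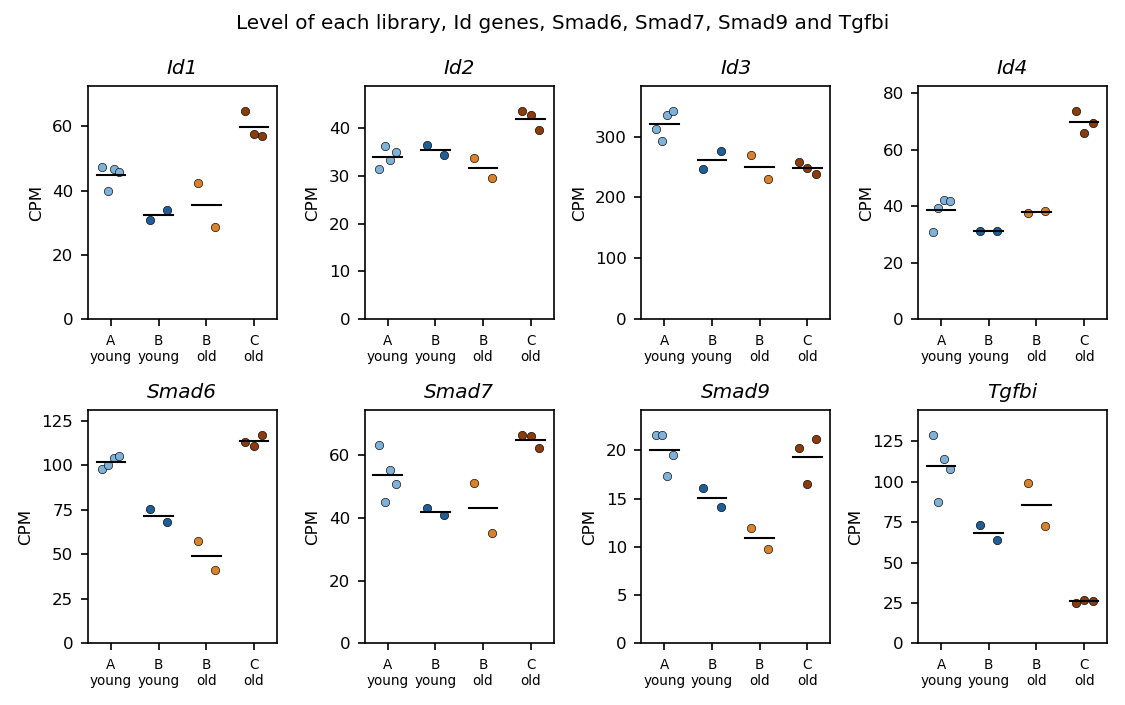
CPM of each library for the Id genes, Smad6, Smad7, Smad9 and Tgfbi, by batch and age, with group means as lines. Id1, Id2, Id4 and Smad6 have their highest values in the 3 batch C libraries, where Tgfbi has its lowest (25.2 to 26.8 CPM).

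Among the target genes, Id1, Id2 and Id4 rose, and Id3 did not pass. Id4 was at 37.7 and 38.5 CPM in batch B and at 73.8, 65.9 and 69.6 CPM in batch C (0.88, SE 0.07, adjusted p = 8.18e-07). Id1 was at 42.3 and 28.6 against 64.7, 57.6 and 56.9 CPM (0.76, SE 0.13, adjusted p = 0.000318) and Id2 at 33.6 and 29.5 against 43.5, 42.6 and 39.5 CPM (0.41, SE 0.08, adjusted p = 0.00107). These 3 calls held with RLE factors, with scaling by total counts and after length and GC correction. With the haematopoietic level as a covariate Id1 kept its call while Id2 (1.40, adjusted p = 0.303) and Id4 (0.46, adjusted p = 0.785) lost it. This level separated the 2 batches completely, so that the fit cannot tell it from batch and does not rank the 3 genes. Id3, with 270 and 231 against 258, 248 and 239 CPM, gave -0.01 (SE 0.08, adjusted p = 0.913), but 0.18 with scaling by total counts and 0.27 after length and GC correction (adjusted p = 0.00575). Tgfbi fell from 99.3 and 72.4 CPM to between 25.2 and 26.8 CPM (-1.72, SE 0.11, adjusted p = 1.19e-07), Skil from 52.3 and 40.7 CPM to between 24.4 and 29.8 CPM (-0.80, SE 0.12, adjusted p = 7.55e-05), and Tgif1 by 0.28 (adjusted p = 0.0385). The call of Tgif1 was lost with limma-trend, DESeq2, scaling by total counts, 1 fit of all 11 libraries, and without old replicate 1 of batch B or any library of batch C.

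**Figure D5:**
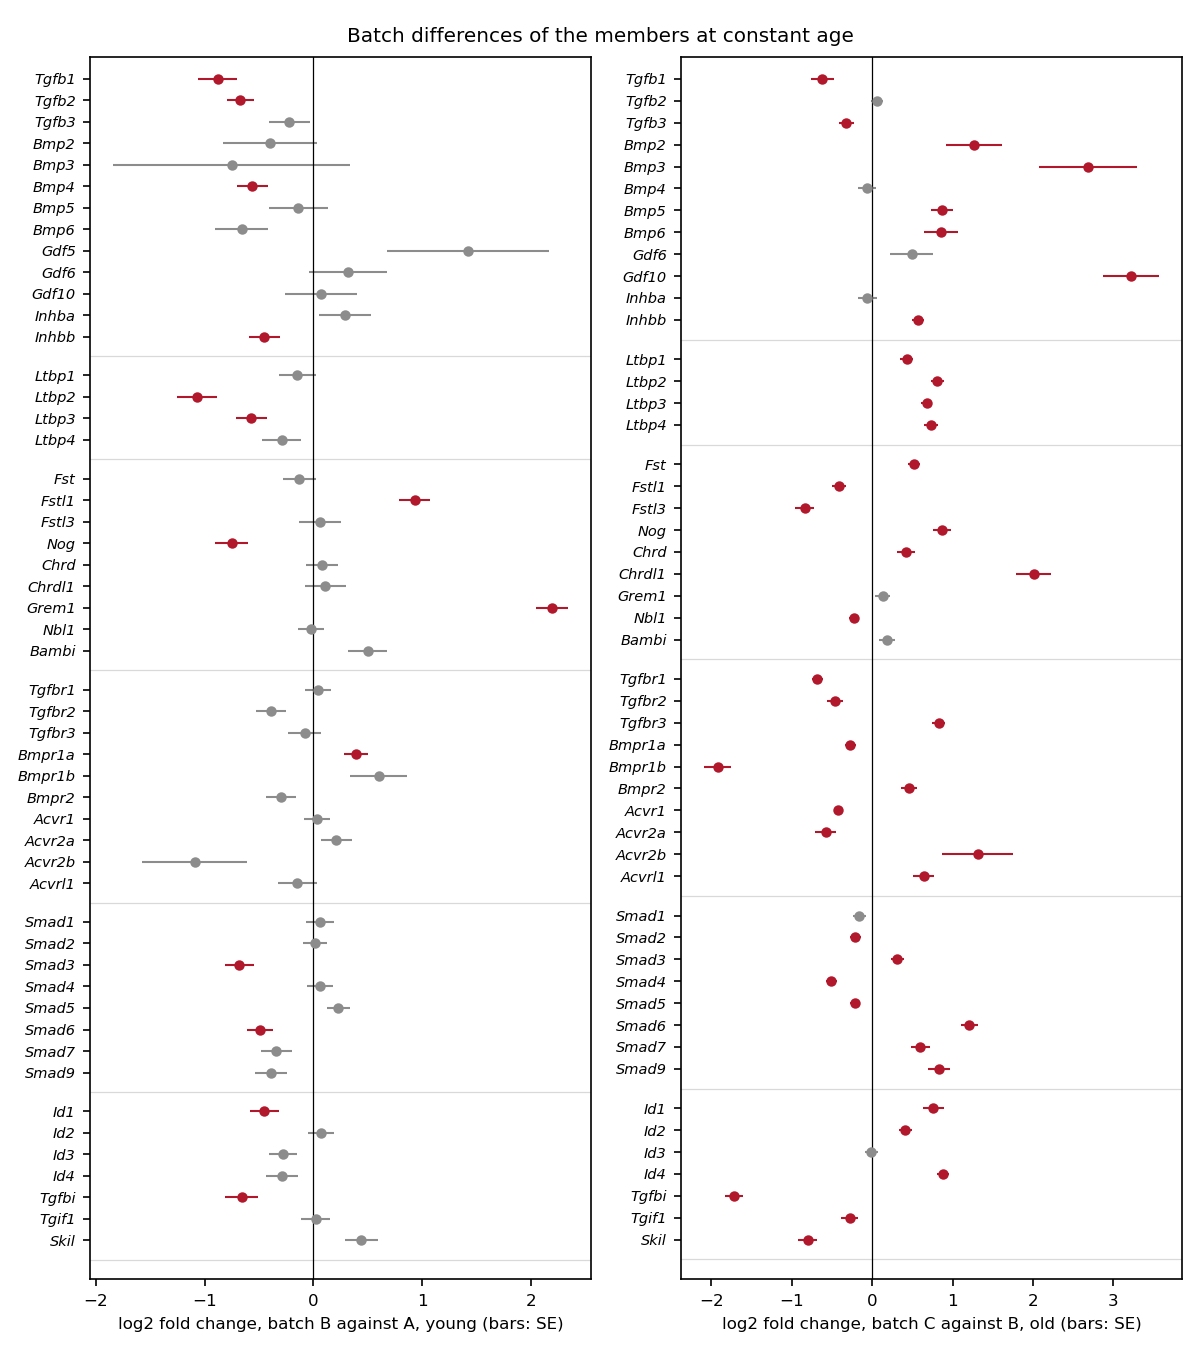
Log2 fold change of the members between batches B and A in young MSCs (left) and between batches C and B in old MSCs (right), grouped by role, with SE bars. Red points passed the adjusted p threshold of 0.05 in edgeR, 14 of 51 on the left and 42 of 50 on the right.

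In batch C all 20 haematopoietic markers fell relative to batch B, to a sum of 204 to 240 CPM. The sum of adipocyte markers was 291 to 311 CPM against 92.5 to 118 CPM and that of osteoblast markers 480 to 673 against 362 to 390 CPM. Of 14 cell cycle genes 9 were called higher in batch C and 0 lower, with sums of 614 to 702 against 308 to 444 CPM. The part of these lists in the members' differences was not tested, apart from the haematopoietic level. With the haematopoietic level as a covariate 6 members were called, 5 of them among the 42 (Acvr2a, Id1, Smad6, Smad7 and Tgfbr2). The haematopoietic sum was 1110 and 1550 CPM in the old libraries of batch B, so that this level separated the batches completely. The fit with this covariate therefore cannot tell it from batch, and no conclusion is drawn from it. Seen over all libraries, 12 members had their lowest values in the 3 libraries of batch C, against 22.4% of all genes, and 9 their highest, against 19.8%. The 9 were Acvrl1, Bmp2, Bmp3, Bmp5, Fst, Id1, Id2, Id4 and Smad6.

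The listed response genes did not move as a block. Of 27 TGF-beta response genes 8 rose and 9 fell in batch C, 63% together against 64.7% of all genes. Junb rose from 48.8 to 500 CPM (log2 fold change 3.36, SE 0.10, adjusted p = 3.79e-10), Ccn1 from 610 to 1740 CPM (1.51) and Snai2 from 106 to 164 CPM (0.63), while Pmepa1 fell from 103 to 51.3 CPM, Timp1 from 599 to 365 CPM (-0.71) and Tgm2 from 21.7 to 11.5 CPM (-0.91). Of 11 BMP response genes 6 rose and 1, Msx2, fell, 63.6% together and thus near the share of all genes. Hes1 (11.1 to 59.7 CPM), Sp7 (34.1 to 79.3 CPM) and Runx2 (41.7 to 80.1 CPM) led the rise. In the other pathway components 14 rose and 7 fell among 41, 51.2% together. Lrrc32 (0.98), Rgma (0.99) and Inha (2.02) led the rise and Bmper (-1.18), Pmepa1 and Nrros (-1.75) the fall.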

How the data were processed

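Polyadenylated RNA of 11 MSC libraries was isolated with a column kit and sequenced with standard Illumina libraries, per the labels. The authors deposited raw counts, in whole numbers per Ensembl gene and library, for the assembly GRCm38 (mm10, from the submitters' processing notes). The aligner, the counter, the strand setting and the use of molecular identifiers are not given in the sources used here. Reads of overlapping genes can therefore have been shared. The values of 1 gene are not reported here.

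Libraries were grouped by age and batch from the labels. Identifiers were matched to GENCODE M21 (28179 of 28222 genes). The members and gene lists were chosen with earlier results of these data known. Counts were tested with the two-sided quasi-likelihood test of edgeR 4.0.16 (R 4.3.3), with filterByExpr at a minimum count of 5, TMM factors and Benjamini-Hochberg adjustment at 0.05 over all genes tested. The age fit used all 11 libraries and a batch term, which leaves the age coefficient to batch B. The fit of batch B against A used the 6 young libraries, and that of batch C against B the 5 old ones. Length-scaled levels used the longest transcript of each gene. Depth was 11969336 to 20315934 counts, and limits from 3 counts cover counting error only.

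Named were all members called for age, the 5 with the smallest p in each direction per batch comparison, the highest member of each role, the Id genes, and the 3 with the smallest p in each direction of the other lists. Other members were added to account for all 52.

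Alternatives were limma-trend (limma 3.58.1), scaling by total counts without TMM, DESeq2 1.42.0, no filter, RLE factors, a minimum count of 10, leaving out each library, the replicate block, a per-library loess correction (span 0.3) for transcript length and GC content, the haematopoietic level as a covariate, no batch term, batch B alone and 1 fit of all libraries. Batches A and C alone were added after the data were seen. The fits were also run on simulated data with the same dispersion for all genes and libraries. Replicate spread differed between the groups here, so that this run does not give the error rate of the age fit. No library was left out, and the replicates of each group differed by more than sampling noise.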

Additional observations from a re-analysis of the deposited data

How the results depend on the processing

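For age, 9 members passed and 3 did in batch B alone. With batches A and C alone, where age and batch cannot be told apart, 31 passed. Without the batch term 9 passed, 3 of them shared. Leaving out each library gave 4 to 12 calls for age. The same gave 5 to 17 calls in the comparison of batch B with A, and 39 to 42 in that of batch C with B. For batch B against A, 2 of 14 members passed with the replicate block and 2 with the haematopoietic covariate. For batch C against B, 6 members passed with this covariate, 5 of them among the 42.

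Signs turned in a few fits. For age, Grem1 gave 0.01 and Gdf10 0.15 without the batch term, and with batches A and C alone Grem1 gave 1.22, Chrdl1 0.05, Gdf10 0.85, Tgfbr3 0.15, Smad6 0.23 and Id2 0.38. For batch C against B, Id3 gave 0.27 after length and GC correction, and with the haematopoietic covariate Tgfbr3 gave -0.05, Ltbp3 -0.06, Tgfbi 0.53 and Skil 0.67. The causes were not tested.

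Same-numbered libraries did not deviate together (correlations of deviations from the group means 0.04 for age, -0.11 and -0.08 for batch B against A, 0.03 and -0.01 for batch C against B). These values gave no sign of pairing, but so few libraries per group cannot exclude it. The replicate block gave 6 calls for age and 39 for batch C against B. Depth limits Bmp7, which had at most 3 counts in any library, and Gdf5, which was tested in 2 of the 3 comparisons. It also limits Bmp3, which exceeded 3 counts in 7 of 11 libraries.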
